A study of Mus musculus with 4 samples.

Results

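Messenger RNA is recruited to the ribosome through its 5′ cap by a small set of proteins, and the transcripts of 10 of their genes are described here in Cpeb4 and control IgG immunoprecipitates of mouse brain. The members are the cap-binding proteins Eif4e, Eif4e2 and Eif4e3, the inhibitory 4E-binding proteins Eif4ebp1 and Eif4ebp2, the scaffolds Eif4g1, Eif4g2 and Eif4g3 and the RNA helicases Eif4a1 and Eif4a2. They were taken by gene symbol from the 53379 rows of the deposited table, and all 10 were present once. The tissue was the V-SVZ (ventricular-subventricular zone), which lines the lateral ventricles and makes new neurons and glia, of wild-type (WT) CD1 mice at postnatal day 7 or 8. Lysate was precipitated with anti-Cpeb4 or with anti-IgG as control, in 2 experiments that each gave 1 library per antibody, so n = 2 libraries per antibody. The labels do not say whether the experiments used separate or pooled animals, and p-values here rest on the spread between these libraries, which may be technical. In the main fit the variance of each gene came mostly from a trend shared by all tested genes.

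In the textbook model, eIF4E holds the cap, an eIF4G scaffold binds eIF4E, and the helicase eIF4A on that scaffold unwinds the 5′ end of the mRNA so that the small ribosomal subunit can load. Hypophosphorylated 4E-BPs occupy the site on eIF4E that eIF4G would use, and mTORC1 releases this block by phosphorylating them. The 4E-T protein of the study's title, encoded by Eif4enif1, uses the same kind of contact with eIF4E and is found in P-bodies, and Cpeb4 is an RNA-binding protein that acts on poly(A) tails and translation of bound mRNAs.

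The libraries held 22486721 to 35037171 reads on genes, recovered as whole reads from the deposited values. Those values are FPKM (fragments per kilobase), scaled close to the authors' size factors and not to read totals. Cpeb4 experiment 2 and IgG experiment 1 held 24483742 and 24094241 reads, but their scales were 0.765 and 1.119. Between 0.29% and 0.439% of the reads on genes fell on the 10 members. The smallest count behind a member was 72 reads (Eif4ebp1, Cpeb4, experiment 2) and the largest 107380 (Eif4g2, Cpeb4, experiment 1). Cpeb4 mRNA itself was at 26.7 and 38.3 FPKM in the Cpeb4 libraries and at 9.04 and 9.66 FPKM in IgG libraries. All 13 V-SVZ stem cell and neuroblast markers were at or above 1 FPKM in every library. Their summed level was 1407 to 1480 FPKM in Cpeb4 and 876 to 892 FPKM in IgG libraries. Summed ependymal markers, 7 genes, were at 63.0 to 72.9 FPKM in Cpeb4 and 83.3 to 87.3 FPKM in IgG, and 8 oligodendrocyte lineage markers at 493 to 507 and 320 to 333 FPKM. Summed microglial markers (8 genes) were at 245 to 246 FPKM in Cpeb4 and 192 to 206 FPKM in IgG, vascular markers (8 genes) at 90.9 to 91.6 and 78.7 to 80.3 FPKM, choroid plexus and blood markers (7 genes) at 206 to 231 and 265 to 292 FPKM and striatal neuron markers (7 genes) at 520 to 524 and 406 to 407 FPKM. In such sums the abundant genes weigh most, and they can differ from the calls of single markers. Of the microglial markers 2 were called higher and 3 lower (median log2 fold change 0.05), and of the vascular markers 1 higher and 2 lower (median -0.16). Stem cell and neuroblast markers had 10 higher and 1 lower (Nes), ependymal 0 and 3, and choroid plexus and blood 1 and 3. Oligodendrocyte lineage markers had 6 and 0 and striatal neuron markers 4 and 0. Of all tested genes 38.8% were called higher and 11.6% lower. No marker was at 0 in all libraries. These marker levels moved with the antibody, and their part in the values below was not tested. A level in such a bulk precipitate cannot tell apart the number of cells, the RNA per cell and the share of that RNA precipitated by each antibody.

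Cpeb4 against IgG asked which eIF4 and 4E-BP transcripts had a higher or lower relative level with anti-Cpeb4 than with anti-IgG. None of the 4 libraries was an input, so the amount of each transcript bound beyond background was not measured. Transcripts of Eif4e, Eif4g2, Eif4e3, Eif4ebp2 and Eif4a2 were higher in the Cpeb4 immunoprecipitates and Eif4e2 was lower. With the authors' scaling Eif4e was 2.56-fold and Eif4g2 2.46-fold higher on the FPKM + 1 scale. Eif4ebp1, Eif4g1, Eif4g3 and Eif4a1 were not called with the authors' scaling of the libraries. Calls were made with limma on log2(FPKM + 1), with experiment as a block, at a Benjamini-Hochberg adjusted p under 0.05 over 15745 tested genes, and all 10 members passed the filter of 1 FPKM in at least 2 libraries. Thus 5 members were called higher, where 38.8% of all tested genes were, and 1 was called lower, where 11.6% were. The median log2 fold change of the members was 0.29 and that of all tested genes 0.19. The libraries of the 2 antibodies did not overlap for any of the 10 members, and the same held for 75.9% of tested genes.

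**Figure D1:**
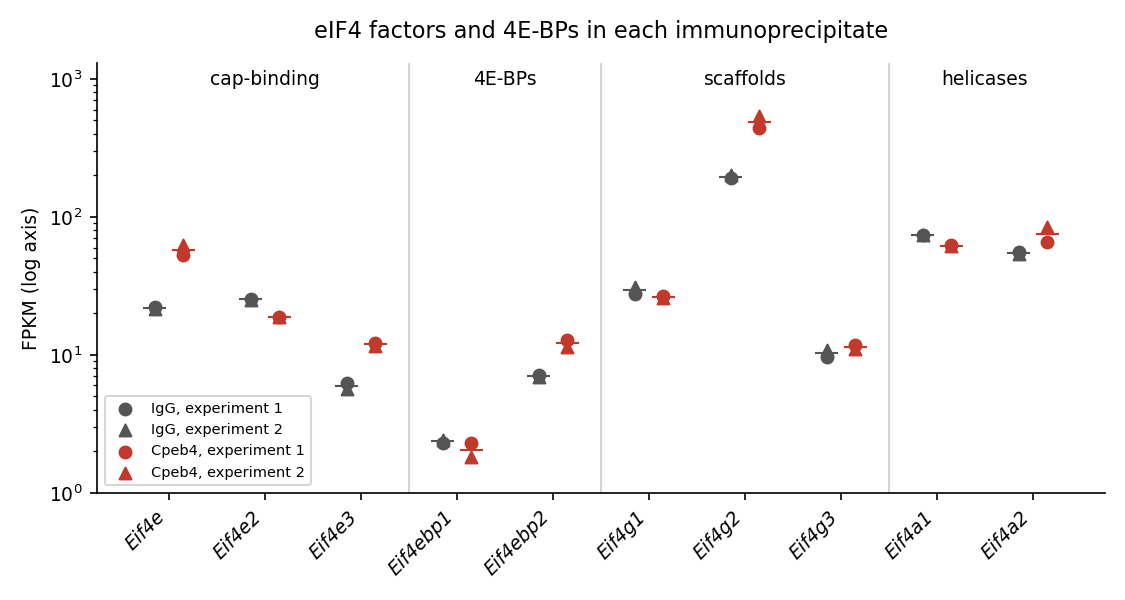
Level of each member in each library, in FPKM on a log axis, grouped by role; circles are experiment 1, triangles experiment 2, and short lines the mean of 2 libraries. Eif4g2 sits above every other member, and Eif4e is at 52.9 and 62.1 FPKM in Cpeb4 libraries and at 22.3 and 21.3 FPKM in IgG libraries.

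Among the cap-binding proteins, Eif4e, the main cap-binding subunit of the initiation complex, was at 52.9 and 62.1 FPKM in the Cpeb4 libraries of experiments 1 and 2 and at 22.3 and 21.3 FPKM in IgG libraries. Both Cpeb4 libraries lay far above both IgG libraries. The log2 fold change was 1.36 (SE 0.13, 95% confidence interval 1.09 to 1.63, limma adjusted p = 3.9e-07), and it stood at percentile 95.7 of all tested genes. Eif4e2 (4EHP), a cap-binding paralog that does not bind eIF4G and is known as a translational repressor, was at 18.8 and 18.7 FPKM in Cpeb4 and 25.6 and 25.0 FPKM in IgG libraries. Its Cpeb4 libraries nearly coincided and both lay below the IgG libraries. The log2 fold change was -0.41 (SE 0.12, interval -0.67 to -0.16, limma adjusted p = 0.00959), at percentile 9.98. Its call was lost without IgG replicate 1 (limma adjusted p = 0.135), without IgG replicate 2 (0.11) and with no filter on low values (0.0671), over a range of 2.18e-09 to 0.135 across all alternatives. Eif4e3, the most divergent of the cap-binding family, was at 12.3 and 11.6 FPKM in Cpeb4 and at 6.22 and 5.66 FPKM in IgG libraries. The Cpeb4 libraries were both higher, with a log2 fold change of 0.90 (SE 0.12, interval 0.64 to 1.16, limma adjusted p = 1.83e-05). The annotated spans of Eif4e3 and of Gpr27, a gene at 50.5 to 75.7 FPKM, overlap by 507 bases, and reads in the shared stretch cannot be assigned between them, since the cDNA method keeps no strand.

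The order of Eif4e and its paralog Eif4e2 differed between the antibodies. In IgG libraries Eif4e was at 0.87 and 0.855 times the FPKM of Eif4e2, and in Cpeb4 libraries at 2.81 and 3.33 times. The ratio was therefore 3.23-fold higher with Cpeb4 in experiment 1 and 3.89-fold higher in experiment 2. Such a ratio within a library does not depend on how libraries are scaled to each other. The ratio of Eif4e to Eif4e3 moved less, from 3.58 and 3.77 in IgG to 4.31 and 5.34 in Cpeb4 libraries. With 2 libraries against 2 an exact permutation test cannot give a p below 0.333, so the ratios are given as a description.

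**Figure D2:**
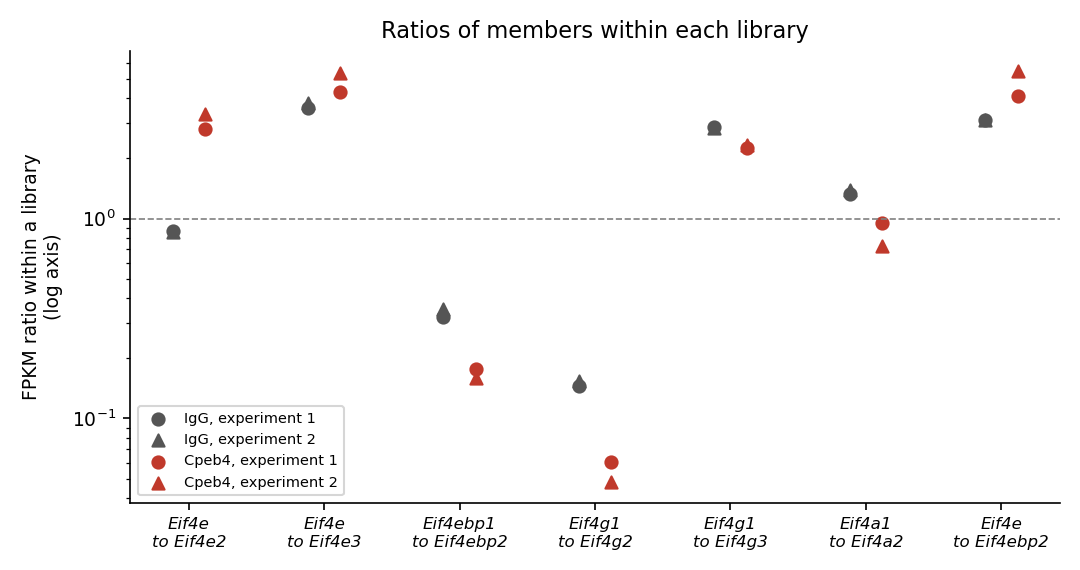
FPKM of the first gene divided by FPKM of the second in each library, on a log axis, for 7 pairs of members; grey is IgG, red is Cpeb4, circles experiment 1 and triangles experiment 2, and the dashed line marks equal levels. Eif4e to Eif4e2 and Eif4a1 to Eif4a2 cross that line between the antibodies, in opposite directions.

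The 4E-BPs are small proteins that hold eIF4E away from eIF4G. Eif4ebp2, the form known as the main 4E-BP of the brain, was at 12.9 and 11.4 FPKM in Cpeb4 libraries and at 7.11 and 6.89 FPKM in IgG libraries. Both Cpeb4 libraries were higher, with a log2 fold change of 0.71 (SE 0.12, interval 0.45 to 0.98, limma adjusted p = 0.000174). Eif4ebp1 had the lowest level of the 10 members, at 2.28 and 1.82 FPKM in Cpeb4 and 2.29 and 2.42 FPKM in IgG libraries, from 72 to 140 reads. In experiment 1 its levels with the 2 antibodies were nearly equal, and the log2 fold change of -0.14 was not called (SE 0.15, interval -0.47 to 0.19, limma adjusted p = 0.472). The ratio of Eif4ebp2 to Eif4ebp1 was 3.10 and 2.85 in IgG libraries and 5.65 and 6.27 in Cpeb4 libraries. Eif4e exceeded Eif4ebp2 by 3.13 and 3.10 times in IgG and by 4.10 and 5.45 times in Cpeb4 libraries.

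Of the scaffolds, Eif4g2 (DAP5), which lacks the eIF4E-binding region of its paralogs and serves cap-independent and alternative initiation, was by far the most abundant member. It was at 438 and 535 FPKM in Cpeb4 libraries and at 191 and 202 FPKM in IgG libraries. It made up 62.3% and 65.0% of the summed FPKM of the 10 members in Cpeb4 libraries, against 45.2% and 46.7% in IgG libraries. The log2 fold change was 1.30 (SE 0.15, interval 0.98 to 1.62, limma adjusted p = 3.06e-06), at percentile 94.9. After removal of the trend of fold change on gene length and level, it fell to 0.36 and the call was lost (limma adjusted p = 0.0613, with 1.46e-13 to 0.0613 over all alternatives). That removal also re-centred the fold changes, whose median over the genes tested went from 0.19 to -0.04. The canonical scaffold Eif4g1 was at 26.6 and 25.7 FPKM in Cpeb4 and 27.6 and 31.1 FPKM in IgG libraries, a log2 fold change of -0.16 that was not called (SE 0.12, interval -0.42 to 0.10, limma adjusted p = 0.298). Eif4g3, a paralog of Eif4g1 with the same domain order, was at 11.8 and 10.97 FPKM in Cpeb4 and 9.60 and 10.9 FPKM in IgG libraries. In experiment 2 the antibodies differed by only 0.01 on the log2 scale, and Eif4g3 was not called (log2 fold change 0.14, SE 0.13, interval -0.13 to 0.41, limma adjusted p = 0.379). The FPKM of Eif4g2 was 6.90 and 6.49 times that of Eif4g1 in IgG libraries and 16.5 and 20.9 times in Cpeb4 libraries. The ratio of Eif4g1 to Eif4g3 was 2.88 and 2.85 in IgG and 2.25 and 2.34 in Cpeb4 libraries.

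The helicases Eif4a1 and Eif4a2 encode closely related DEAD-box proteins. Eif4a1, the form typical of proliferating cells, was at 62.1 and 61.9 FPKM in Cpeb4 and 74.2 and 74.2 FPKM in IgG libraries. The libraries of each antibody nearly coincided, but the log2 fold change of -0.26 was not called (SE 0.13, interval -0.52 to 0.01, limma adjusted p = 0.103). Eif4a2, the form prominent in brain, was at 65.5 and 84.5 FPKM in Cpeb4 and 56.0 and 53.4 FPKM in IgG libraries. It was called higher with a log2 fold change of 0.44 (SE 0.14, interval 0.15 to 0.73, limma adjusted p = 0.0136), and the difference was 0.22 in experiment 1 and 0.65 in experiment 2. The Eif4a2 call was lost without IgG replicate 1 (limma adjusted p = 0.135), without IgG replicate 2 (0.2) and with no filter on low values (0.139), over a range of 8.07e-05 to 0.995 across all alternatives. Without Cpeb4 replicate 2 its log2 fold change was 0.26 and without Cpeb4 replicate 1 it was 0.62. Eif4a1 was called lower without Cpeb4 replicate 1 (log2 fold change -0.26, limma adjusted p = 0.0229) and without Cpeb4 replicate 2 (-0.25, limma adjusted p = 0.026), over a range of 1.13e-06 to 0.365 across all alternatives. Eif4a1 was at 1.33 and 1.39 times the level of Eif4a2 in IgG libraries and at 0.947 and 0.733 times in Cpeb4 libraries, so the more abundant helicase transcript was Eif4a1 with IgG and Eif4a2 with Cpeb4. How reads shared by these paralogs and their pseudogene copies were counted is not given in the sources used here. The annotated copy Eif4a-ps4 was at 4.87 and 5.38 FPKM in Cpeb4 and 6.53 and 5.33 FPKM in IgG libraries and was not called (limma adjusted p = 0.312). The span of Eif4a2 also overlaps that of Rfc4 by 185 bases, where reads cannot be assigned without strand; Rfc4 was at 9.78 to 10.7 FPKM.

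By level, the order in IgG libraries was Eif4g2, Eif4a1, Eif4a2, Eif4g1, Eif4e2, Eif4e, Eif4g3, Eif4ebp2, Eif4e3 and Eif4ebp1, and no neighbours in it overlapped between libraries. In Cpeb4 libraries the order was Eif4g2, Eif4a2, Eif4a1, Eif4e, Eif4g1, Eif4e2, Eif4ebp2, Eif4e3, Eif4g3 and Eif4ebp1. There the libraries of Eif4a1 and Eif4e overlapped, as did those of Eif4ebp2 and Eif4e3 and those of Eif4e3 and Eif4g3. Eif4e moved from rank 6 with IgG to rank 4 with Cpeb4, past both Eif4e2 and Eif4g1.

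**Figure D3:**
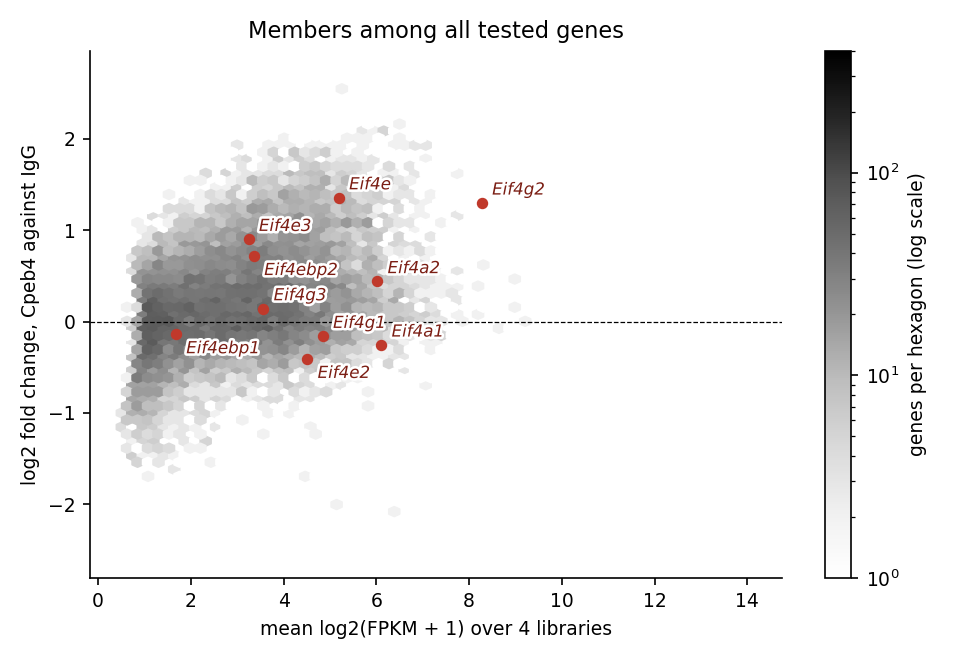
Log2 fold change of Cpeb4 against IgG plotted against the mean log2(FPKM + 1) over 4 libraries for 15745 tested genes (grey hexagons, darker for more genes), with the 10 members as red points. With the authors' scaling Eif4e and Eif4g2 stand highest of the members, at percentiles 95.7 and 94.9 of all fold changes, Eif4g2 lies farthest to the right, and Eif4e2 stands lowest, at percentile 9.98.

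The calls of the smaller changes, and the sign for Eif4a2 and Eif4g3, depended on how the libraries were scaled to each other. The median log2 fold change of all tested genes was 0.19 with the authors' scaling, -0.24 with libraries scaled to read totals, -0.18 by upper quartile, -0.04 by trimmed mean of M-values and -0.11 after centring on the median of tested genes. Eif4e, Eif4g2 and Eif4e3 were called higher under all 5 scalings, as were 17.3% of tested genes, and Eif4e2 was called lower under all 5, as were 11.6%. The other 4 scalings all moved Cpeb4 libraries down relative to IgG, so all 1822 genes called lower with the authors' scaling stayed lower, and a lower call under all 5 adds nothing to it. The log2 fold change of Eif4e ran down to 0.85 with read totals, that of Eif4g2 to 0.78 and that of Eif4e3 to 0.44, while that of Eif4e2 ran to -0.91. Eif4ebp2 kept its call under 4 scalings and lost it with read totals (0.25, limma adjusted p = 0.118; 2.24e-08 to 0.118 over all alternatives). Eif4a2 was called only with the authors' scaling, and its log2 fold change was -0.07 with read totals. The 4 alternative scalings all called Eif4g1 and Eif4a1 lower, with values of -0.66 to -0.43 for Eif4g1 and -0.76 to -0.53 for Eif4a1 on the log2 scale, and Eif4ebp1 under 3 of them, at -0.49 to -0.44. Eif4g3 turned negative under all 4 and was called lower with read totals (-0.33, limma adjusted p = 0.0343).

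Over all tested genes, the share called higher was 17.5% and the share called lower 42.4% with read totals, where 3 members were higher and 5 lower. Upper quartile called 19.6% higher and 37.0% lower (members 4 and 4). Trimmed mean of M-values called 25.6% in each direction (members 4 and 3), and median centring 22.9% and 30.8% (members 4 and 4). With no filter on low values 46911 genes were tested in place of 15745, and the shares of this larger set were 8.35% and 1.87% (members 4 and 0). These 2 shares are not comparable to the others, because the added genes lie below the filter. A further fit removed a trend of the fold change on gene length and mean level, including its overall level. The shares were then 23.9% and 25.7% (members 2 and 4). In that fit Eif4e (log2 fold change 0.72) and Eif4e3 (0.66) were higher and Eif4e2 (-0.88), Eif4a1 (-0.87), Eif4g1 (-0.79) and Eif4g3 (-0.37) lower. The calls of Eif4g2, of Eif4ebp2 (0.27, limma adjusted p = 0.0843) and of Eif4a2 (-0.11, limma adjusted p = 0.534) were lost.

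**Figure D4:**
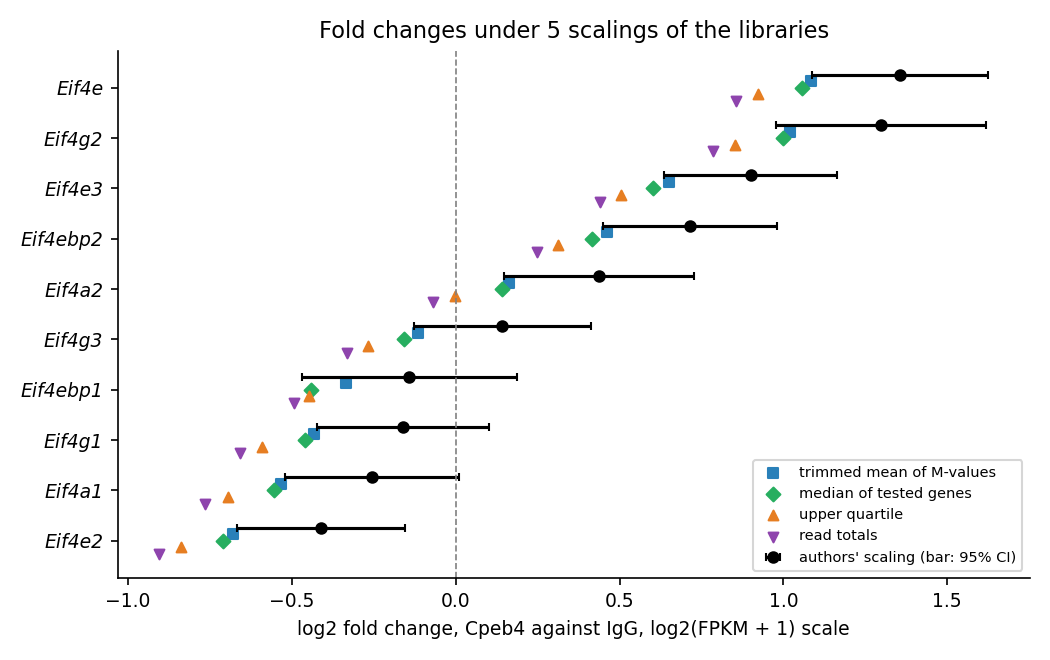
Log2 fold change of Cpeb4 against IgG, on the log2(FPKM + 1) scale, for each member under 5 scalings of the libraries; the black bar is the 95% confidence interval with the authors' scaling. Eif4e, Eif4g2 and Eif4e3 stay to the right of 0 and Eif4e2 to the left under each scaling, while Eif4a2 and Eif4g3 cross 0.

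In the authors' deposited table, made from the same libraries, the same 6 members passed an adjusted p under 0.05 in the same directions. There 21.7% of genes with an adjusted p were higher and 4.93% lower. The authors' deposited table gives Eif4e a log2 fold change of 1.39 (SE 0.16, adjusted p = 3.68e-17), Eif4g2 1.29 (SE 0.15, adjusted p = 2.25e-17) and Eif4e3 1.0 (SE 0.20, adjusted p = 7.4e-06). For Eif4ebp2 the authors' deposited table gives 0.78 (adjusted p = 2.92e-05), for Eif4a2 0.44 (adjusted p = 0.0341) and for Eif4e2 -0.44 (adjusted p = 0.0259). The remaining values in the authors' deposited table are -0.27 for Eif4a1 (adjusted p = 0.183), -0.21 for Eif4ebp1 (0.743), -0.18 for Eif4g1 (0.461) and 0.15 for Eif4g3 (0.586).

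Other genes that act with the members were counted from 4 lists. Of all tested genes 38.8% were higher and 11.6% lower, and 17.3% were higher under all 5 scalings. Of 20 further eIF4 factors and 4E-binding or poly(A)-binding partners, 18 were tested, 9 were higher, 1 lower and 8 not called. Their median log2 fold change was 0.35, and 4 of the 9 were higher under all 5 scalings. The RNA helicase Ddx3x was higher at 52.9 ± 9.16 FPKM in Cpeb4 against 19.2 ± 0.256 in IgG libraries (mean ± SD, n = 2 each; log2 fold change 1.41, limma adjusted p = 3.54e-07). Paip2, which inhibits the poly(A)-binding protein, was higher at 260 ± 26.8 against 91.8 ± 1.84 FPKM (log2 fold change 1.49), and Angel2, a relative of the 4E-binding protein Angel1, at 46.7 ± 3.81 against 25.1 ± 1.13 FPKM (0.87). The lower gene was Gigyf1, a partner of Eif4e2, at 4.34 ± 0.715 against 7.23 ± 0.684 FPKM (log2 fold change -0.63, limma adjusted p = 0.00148). Its paralog Gigyf2, also a partner of Eif4e2, was not called (log2 fold change 0.12, limma adjusted p = 0.447). Eif4enif1 was at 23.6 and 23.97 FPKM in Cpeb4 and 25.5 and 24.6 FPKM in IgG libraries. Pdcd4, an inhibitor of eIF4A, was at 21.7 and 23.7 FPKM against 19.3 and 18.3 FPKM. Neither was called with the authors' scaling (log2 fold changes -0.07 and 0.26, limma adjusted p = 0.66 and 0.095), and Eif4enif1 was called lower under the other 4. Eif4ebp3 and Eif4e1b did not reach the filter, at no more than 0.595 and 0.173 FPKM.

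Among 25 kinases and regulators upstream of eIF4E and the 4E-BPs, 9 were higher, 3 lower and 13 not called (median log2 fold change 0.13). The S6 kinase Rps6kb1 was higher at 33.7 ± 3.03 against 13.2 ± 0.561 FPKM (log2 fold change 1.28) and the phosphatase subunit Ppp2ca at 136 ± 5.93 against 56.5 ± 1.34 FPKM (1.26), at limma adjusted p of 4.22e-07 and 9.43e-07. The lower genes were Rhebl1 (8.77 ± 0.383 against 18.2 ± 0.192 FPKM, log2 fold change -0.97), the second S6 kinase Rps6kb2 (13.8 ± 0.463 against 18.1 ± 1.14 FPKM, -0.36) and Mtor, the kinase of mTORC1 (12.5 ± 0.319 against 16.5 ± 2.01 FPKM, -0.37), at limma adjusted p of 6.99e-06, 0.0226 and 0.0229. In the authors' deposited table Rps6kb2 was not called (adjusted p = 0.11).

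Of 5 nuclear cap-binding and associated genes, Ncbp1 and Ncbp2, the subunits that bind the cap in the nucleus, were higher (log2 fold changes 0.80 and 0.70, limma adjusted p = 4.71e-05 and 0.00016), under 4 and 3 of the 5 scalings, Srrt was lower (-0.40, limma adjusted p = 0.0133) and 2 were not called. Of 14 subunits of eIF3, the factor that links eIF4G to the small ribosomal subunit, 8 were higher, 0 lower and 6 not called. Their median was 0.42, and 4 of the 8 were higher under all 5 scalings. Eif3e was higher at 24.6 ± 3.82 against 8.33 ± 0.236 FPKM (log2 fold change 1.45, limma adjusted p = 2.64e-07). Eif3j2 and Eif3j1 were higher at log2 fold changes of 1.24 and 1.17, values that are uncertain because these copies are near-identical and may share reads. Over the 4 lists, 28 of 62 tested genes were higher and 5 lower, where 38.8% and 11.6% of all tested genes were. Under all 5 scalings 14 of the 28 were higher, as were 2723 of the 6106 higher genes among all tested. With read totals the 4 lists held 14 genes higher and 29 lower.

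**Figure D5:**
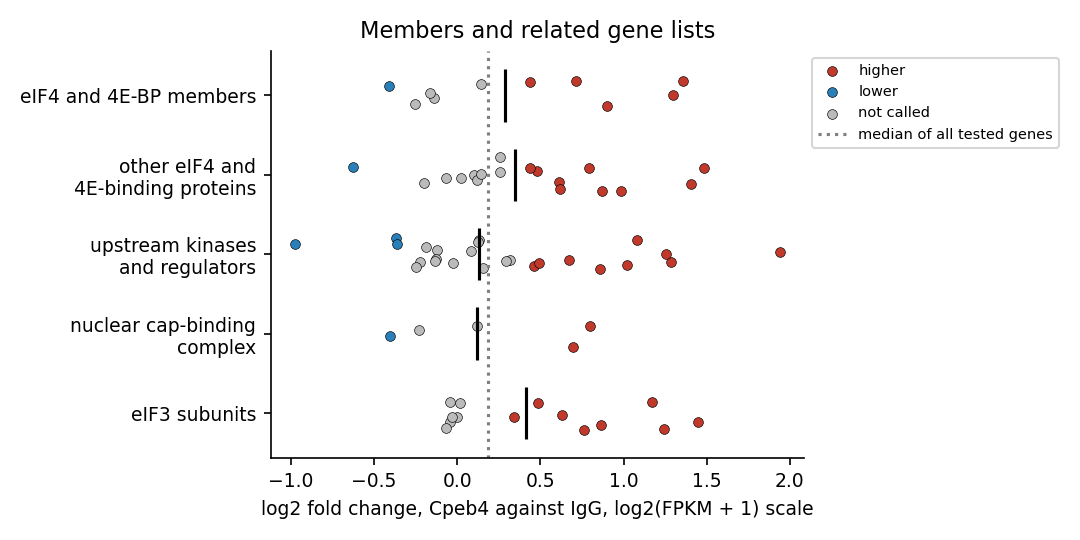
Log2 fold change of Cpeb4 against IgG, on the log2(FPKM + 1) scale, for the 10 members and the tested genes of 4 related lists; colours give the limma call, black bars the median of each list and the dotted line the median of all tested genes (0.19). Each row holds genes called higher, and each but eIF3 holds at least 1 called lower.

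Among the tested genes whose levels over the 4 libraries lay nearest to Eif4e, by Euclidean distance of log2(FPKM + 1), were B3galnt1 (distance 0.04), Clcn3 (0.06), Adam10 (0.09) and Prelid3b (0.13). B3galnt1, a glycosyltransferase, was at 52.8 and 63.4 FPKM in Cpeb4 and 22.4 and 20.9 FPKM in IgG libraries. The log2 fold changes of these 4 genes lay between 1.31 and 1.38. The same 4 libraries picked these genes, so values near that of Eif4e were fixed by the choice.

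In genomic position (GRCm38), the members lie on 9 chromosomes. Eif4e spans chromosome 3 from 138526191 to 138559696, Eif4e2 chromosome 1 from 87213911 to 87240488 and Eif4g2 chromosome 7 from 111067985 to 111083030. Eif4g1 (20672720 to 20692883) and Eif4a2 (23107468 to 23114132) share chromosome 16 and had different outcomes. Eif4g2, Eif4g1, Eif4a1 and Eif4a2 host annotated small nucleolar RNAs within their spans, 10 in all, of which those with a row in the deposited table were at no more than 0.679 FPKM in any library.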

How the data were processed

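RNA precipitated with anti-Cpeb4 or anti-IgG from V-SVZ lysate was measured in 4 libraries. Per the labels' protocols, the MAGNA RIP kit gave the RNA, SMART-Seq v4 (low input) the cDNA and Nextera XT the libraries. The submitters' processing notes name Trim Galore 0.5.0, STAR 2.6.0c, HTSeq 0.6.1p2, DESeq2 1.26.0 and mm10, with no role. Per the file headers, the authors deposited FPKM per library and their own comparison: a mean signal (reads divided by size factors), the log2 fold change and its error, the test score, the p-value and the adjusted p-value. Columns of other samples numbered 0.

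Whole reads were recovered by joining the steps of the deposited FPKM to the authors' mean signal, for 30361 genes, with 100% of values within 0.01 read of a whole number. Reads carry no molecular identifiers and are not independent molecules. Genes with at least 1 FPKM in at least 2 libraries entered limma 3.58.1 (R 4.3.3, trended prior) as log2(FPKM + 1), antibody as effect and experiment as block, two-sided, with Benjamini-Hochberg adjustment over all tested genes. The pseudocount understates the change of low genes. The block left 1 residual degree of freedom, and 14.6 came from the prior. Experiment numbers are shared across antibodies in the labels, and the name of the deposited table holds the word batch, hence the block; the correlation across genes of the deviations of same-numbered libraries was 0.002. Recovered reads of the paired libraries differed beyond sampling noise (chi-square per degree of freedom 28.2 between Cpeb4 libraries, 6.30 between IgG libraries). The code was tested on simulated data.

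Limma-voom on the recovered reads was the count-based alternative, and called 6437 of 15633 genes higher and 1851 lower. Other alternatives changed scaling, filter, pseudocount, block, a loess trend (span 0.5) or left out each library. All 10 members are named; of each list, up to 3 called genes per direction with the smallest adjusted p are named, besides Eif4enif1 and Pdcd4, the 5 genes nearest to Eif4e, pseudogenes and Cpeb4. Genes whose spans overlap a member, and Gigyf2, Eif4ebp3 and Eif4e1b, were named after their values were seen. Some genes that this rule selects are not reported here by name. Members and lists were chosen with earlier results of these data known. Gene positions come from the RefSeq annotation of GRCm38.p6. Protein and 3′ untranslated sequences were not analysed here.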

Additional observations from a re-analysis of the deposited data

How the results depend on the processing

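Over 14 alternatives, Eif4e and Eif4e3 kept their direction and call, with log2 fold changes of 0.72 to 1.47 and 0.44 to 1.01. Eif4e2 kept its direction in all 14 and its call in 11. Eif4g2 kept its call in 13 and Eif4ebp2 in 12, as given with the results. The sign turned for Eif4g3 with read totals (-0.33), upper quartile (-0.27), trimmed mean of M-values (-0.12), median centring (-0.16) and the length and level trend removed (-0.37), and for Eif4a2 with read totals (-0.070), upper quartile (-0.0011) and the trend removed (-0.11). Other scalings shift all genes by construction. Removing the trend subtracted its overall level as well, so that fit also re-centred the fold changes by construction. Its median log2 fold change over the genes tested was -0.04, against 0.19 in the main fit. How much of each sign turn in that fit came from the re-centring was not tested.

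Of all tested genes, 6106 were higher and 1822 lower. These counts were 2759 and 6670 with read totals, 3088 and 5821 by upper quartile and 4028 and 4024 by trimmed mean of M-values. They were 3607 and 4857 by median centring, and 3739 and 4012 of 15633 genes with the trend removed. With no filter they were 3915 and 875 of 46911 genes, and a filter of 50 reads gave 2756 lower of 19373. Calls were 77% higher with the scaling of the authors and 29.3%, 34.7%, 50%, 42.6% and 48.2% higher in the first 5 of these. Members higher numbered 3 with read totals and 2 with the trend removed, against 5; members lower numbered 5 with read totals, 4 by upper quartile, 3 by trimmed mean of M-values, 4 by median centring, 4 with the trend removed and 0 with no filter, against 1. Of the related lists, 28 genes were higher, and 14 with read totals, 18 by upper quartile and 15 with the trend removed; 5 were lower, and 29 with read totals, 25 by upper quartile, 18 by trimmed mean of M-values, 20 by median centring, 22 with the trend removed and 1 with no filter.

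Leaving out each library gave 3977 to 6534 genes higher and 867 to 2497 lower, 4 to 5 members higher and 0 to 2 lower, and 21 to 34 listed genes higher and 1 to 10 lower. These fits had no block, and the lone library was assumed to vary like the remaining pair; counts were lowest where the spread came from the Cpeb4 pair. With no replicate block, 6007 genes were higher and 1714 lower, and no member changed its call. Depth limits Eif4ebp1 most, at 72 to 140 reads per library.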
